A study of Mus musculus with 4 samples.

Results

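Matrix metalloproteinases (Mmp genes), the related secreted proteases with thrombospondin repeats (Adamts), the ADAMTS-like glycoproteins (Adamtsl) and the tissue inhibitors of metalloproteinases (Timp) were compared between young and aged mouse satellite cells. A gene was taken as a member when the array platform's annotation gave a probe set that 1 symbol alone and that symbol was Mmp, Adamts or Adamtsl with a number, or Timp with a digit. This rule found 42 genes of the 18193 on the array with such a probe set: 18 Mmp, 15 Adamts, 5 Adamtsl and 4 Timp genes, read by 78 probe sets. All 42 entered the test, since no filter on low values was used.

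Satellite cells are the stem cells of skeletal muscle. The cells were sorted for the surface proteoglycan syndecan-4 from hindlimb muscle of C57BL/6J mice, with no further treatment or genetic change named in the labels. The young animals were adults of 3 to 6 months and the aged animals of 20 to 25 months. Each age had 2 independent pools, each pool gave 1 array, and a pool held 4 to 8 mice by the series text and 6 to 8 by the sample text, so the mice within a pool were averaged. The RNA passed through 2 rounds of linear amplification before labelling, so these are arrays of bulk RNA, in which fewer cells of a type and less RNA per cell cannot be told apart.

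Matrix metalloproteinases are zinc proteases that are made as inactive proenzymes and together can cut almost every protein of the extracellular matrix, either as secreted enzymes or fixed to the cell surface. Adamts proteases cut large proteoglycans, procollagens and microfibril proteins, while Adamtsl proteins share their accessory domains but lack the protease. Timp proteins occupy the active site of matrix metalloproteinases and so set how much of the protease present can act. Timp3 also inhibits Adamts proteases. In muscle, remodelling of the basement membrane around the fibre is part of satellite cell activation, migration and regeneration, and fibroblasts, vessel cells and leukocytes of the tissue make these enzymes too.

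A feature that the rule did not use is position. On GRCm38.p6, 9 of the 18 Mmp genes belong to 1 row of Mmp genes on chromosome 9, in the order Mmp13, Mmp12, Mmp1b, Mmp3, Mmp1a, Mmp10, Mmp8, Mmp20 and Mmp7, and they include all 4 collagenases measured. Their promoters are shown because most share a pair of motifs that no other member with a known start held together. RefSeq start sites were found for 27 of the 42 members. In the 100 bases before a start, the letters TGANTCA (N is any base; the AP-1 element TGACTCA or TGAGTCA is among its matches) were searched for on both strands. A gene with 2 starts, as Mmp12 and Mmp7 have, was counted when either held them. They occurred in 8 of the 9 genes of the row and in 0 of the 18 other members with a start. Counted by promoter, they occurred in 8 of the 11 of the row and in 2.73% of all 32851. The letters TATAAA, on either strand, occurred in 7 of the 9 genes and in 2 of the other 18. Counted by promoter, they occurred in 7 of the 11 of the row and in 5.56% of all. Both motifs occurred together in the same 7 genes, and in 0.234% of all promoters. The GC box letters GGGCGG, on either strand, occurred in 0 of the 9, in 14 of the other 18, and in 24.7% of all promoters.

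The 7 windows with both motifs are printed 5′ to 3′ from RefSeq, build GRCm38.p6, up to the base before the start, with TGANTCA and TATAAA in capitals. Those on the plus strand are chr9:7272414-7272513 for Mmp13, chr9:7445722-7445821 for Mmp3, chr9:7464041-7464140 for Mmp1a, chr9:7502242-7502341 for Mmp10, chr9:7628131-7628230 for Mmp20 and chr9:7691990-7692089 for Mmp7, which has another start in the table without either motif. The window of Mmp1b is chr9:7388027-7388126 on the minus strand.
Mmp13: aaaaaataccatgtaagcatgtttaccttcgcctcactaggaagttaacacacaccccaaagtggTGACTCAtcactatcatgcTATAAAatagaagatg
Mmp1b: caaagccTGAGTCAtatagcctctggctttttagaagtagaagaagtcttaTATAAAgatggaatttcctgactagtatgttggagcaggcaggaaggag
Mmp3: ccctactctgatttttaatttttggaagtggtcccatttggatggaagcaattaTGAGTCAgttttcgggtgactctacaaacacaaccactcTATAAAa
Mmp1a: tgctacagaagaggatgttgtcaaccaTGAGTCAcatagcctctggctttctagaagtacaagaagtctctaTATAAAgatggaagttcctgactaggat
Mmp10: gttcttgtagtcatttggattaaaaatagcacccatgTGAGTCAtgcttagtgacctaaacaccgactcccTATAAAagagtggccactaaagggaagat
Mmp20: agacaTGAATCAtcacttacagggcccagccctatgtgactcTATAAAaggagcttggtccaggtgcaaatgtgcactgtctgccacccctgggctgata
Mmp7: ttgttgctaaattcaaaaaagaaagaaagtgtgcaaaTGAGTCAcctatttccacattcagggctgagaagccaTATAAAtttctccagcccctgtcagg
The match in Mmp20 reads TGAATCA, and in the other 6 it reads TGACTCA or TGAGTCA. A match describes these letters and is no evidence that a factor binds there.

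Most members differed little between the ages, and 1 gene stood apart. Mmp19, which cuts basement membrane proteins, was 6.12-fold higher in aged cells, with a log2 difference of 2.61 ± 0.41 (standard error of the fit, n = 2 pools per age). The next largest differences, also upward, were those of the gelatinase Mmp2 (1.28 ± 0.58), the fibrillin-binding Adamtsl4 (1.13 ± 0.95) and the inhibitor Timp3 (1.05 ± 0.46). No member was lower by more than the 0.54 of Mmp9, whose difference of -0.54 was undercut by 18.0% of all genes. Values are taken as log2, a base the deposited table does not state, and each was centred on the median of its probe set, so a value near 0 says nothing about abundance and no gene's level can be set against another's.

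With limma, 0 of the 18193 genes passed an adjusted p of 0.05, members included. An unadjusted p under 0.05 was reached by 1645 genes, which is 9.04% of all, with 2.85% higher and 6.19% lower in aged cells. Among the members that count was 1 of 42, or 2.38%, and the gene was Mmp19. The values of the ages did not overlap in 11 of the 42 members, a share of 26.2% against 36.8% of all genes. Aged pools lay above young pools in 8 of the 42, or 19.0%, against 19.9% of all genes, and below them in 3 of the 42, or 7.14%, against 16.9%. With 2 pools against 2, an exact two-sided permutation test of a single gene cannot go below p = 0.333, so a gene without overlap carries no more than that by itself.

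The direction was even over the members, with 21 higher and 21 lower and a median difference of 0.0049, against a median of 0.050 and 53.8% higher over all genes. The median size of the difference, without its sign, was 0.29 in the members and 0.37 over all genes. That size was larger than the gap between pools of either age in 7 of the 42 members, or 16.7%, against 24.8% of all genes. In 32 of the 42 members the difference was smaller than its own standard error, as it was in 10780 of all 18193 genes. By family the median was 0.036 for Mmp, -0.095 for Adamts, 0.72 for Adamtsl and 0.15 for Timp genes. Each of these medians changed sign when at least 1 of the pools was left out. Leaving out aged replicate 1 gave -0.23 for Adamtsl and -0.083 for Timp genes, leaving out young replicate 2 gave 0.084 for Adamts and 0.30 for Mmp genes, and leaving out young replicate 1 or aged replicate 2 gave -0.082 and -0.066 for Mmp genes.

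**Figure D1:**
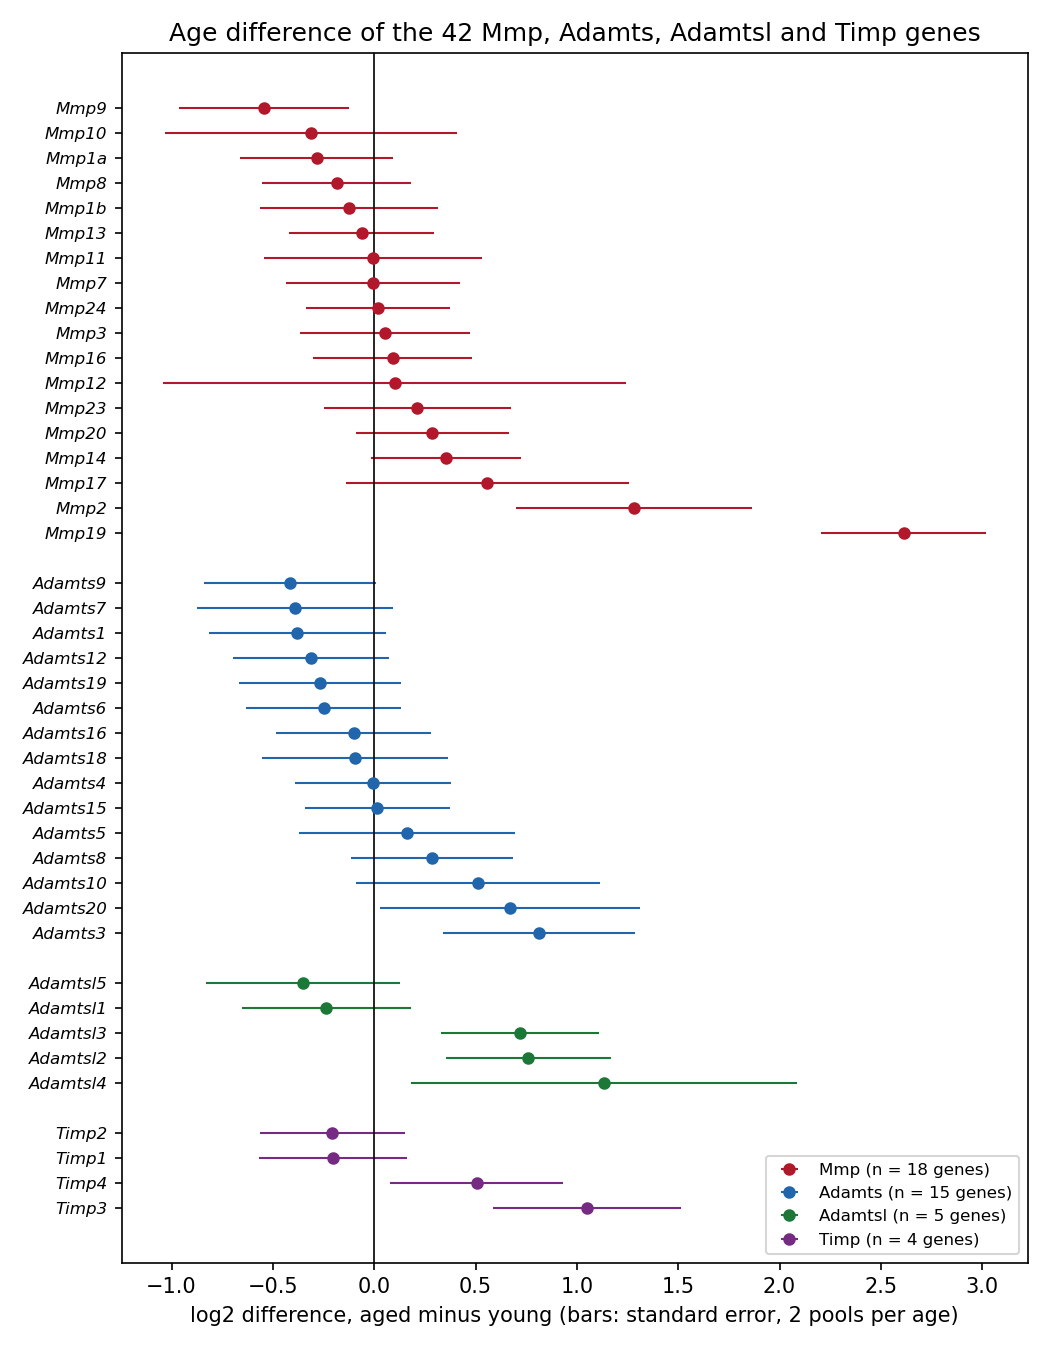
Log2 difference between aged and young cells of each of the 42 members, by family; points are the fitted differences and bars their standard errors (2 pools per age). Mmp19 lies at 2.61, while the other 17 Mmp genes lie between -0.54 and 1.28 and most bars cross 0.

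**Figure D2:**
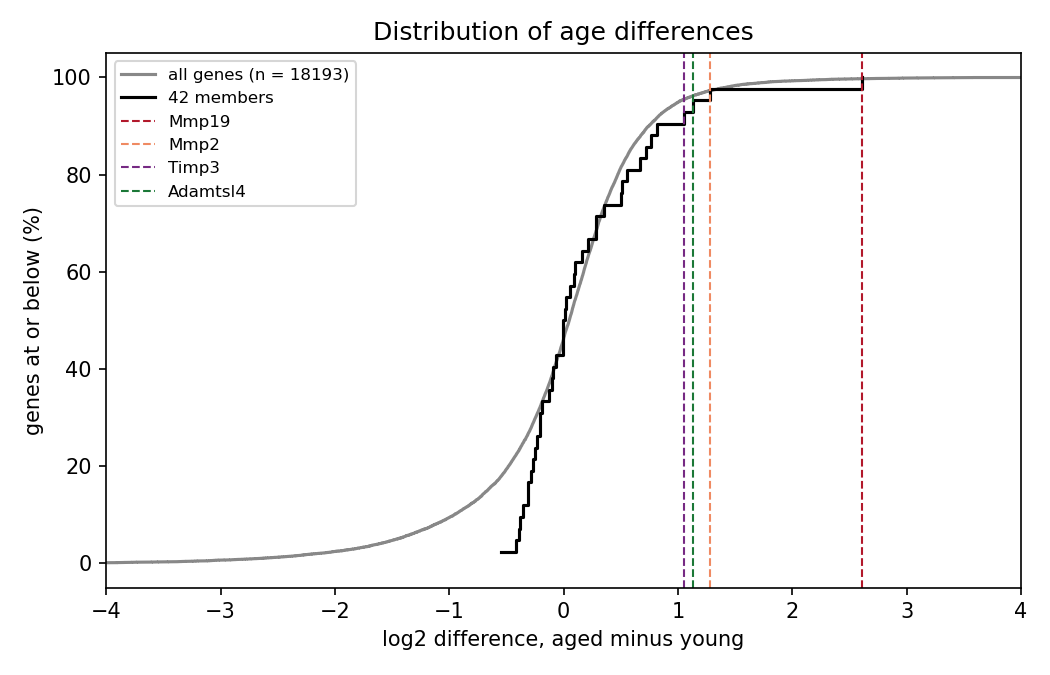
Cumulative share of genes by log2 difference between aged and young cells, for all 18193 genes (grey) and the 42 members (black), with dashed lines at 4 members. The black curve starts at -0.54, where the grey curve has already reached 18.0%, and Mmp19 at 2.61 is the rightmost member.

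Mmp19 was read by 2 probe sets. Its gene values were -1.09 and -1.31 in young pools 1 and 2, and 1.73 and 1.09 in aged pools 1 and 2. Both aged pools thus lay above both young pools, by far more than the 0.22 between the young pools and the 0.64 between the aged pools. The probe sets differed by 3.17 and 2.06, and in each of them both aged values lay above both young values. The unadjusted p was 0.000915 and the adjusted p 0.150 over all genes (limma), which puts the gene at rank 107 of 18193 and above 99.7% of genes by signed difference. Leaving out 1 pool in turn gave differences from 2.30 to 2.93, and the adjusted p ran from 0.139 to 0.671 over 9 alternative settings, with the highest when young replicate 1 was left out.

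Mmp2, Mmp14 and Timp2 work together on the cell surface, where the membrane protease Mmp14 and the inhibitor Timp2 form the complex that activates proMmp2. Mmp2 stood at -0.98 and -0.10 in the young pools and at 1.38 and 0.10 in the aged pools. The ages did not overlap, but young pool 2 and aged pool 2 lay close together, and most of the distance came from young pool 1 and aged pool 1. The difference of 1.28 ± 0.58 (2.43-fold) had an adjusted p of 0.619 with limma. Leaving out aged replicate 1 gave 0.65, and leaving out aged replicate 2 gave 1.92. Its probe sets differed by 0.74 and 1.82. In the first the ages overlapped, with young pool 2 at 0.11 and aged pool 2 at -0.11.

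Mmp14 stood at 0.04 and -0.22 in the young and 0.39 and 0.14 in the aged pools, a difference of 0.36 ± 0.37. All 3 of its probe sets were higher in aged cells, by 0.12 to 0.59. The difference of their average was larger than its gap between pools of either age, although smaller than its standard error. In the probe sets that differed by 0.12 and 0.36 the ages overlapped. In the latter, young pool 2 and aged pool 2 held the same value. Timp2 went the other way by a small amount, with 0.10 and 0.11 in the young and -0.04 and -0.16 in the aged pools (-0.21 ± 0.36). That narrow spread is an average over 6 probe sets that disagreed, with 3 higher and 3 lower in aged cells and differences from -1.45 to 0.39. When only the most variable of its probe sets was used, the Timp2 difference turned to 0.085.

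**Figure D3:**
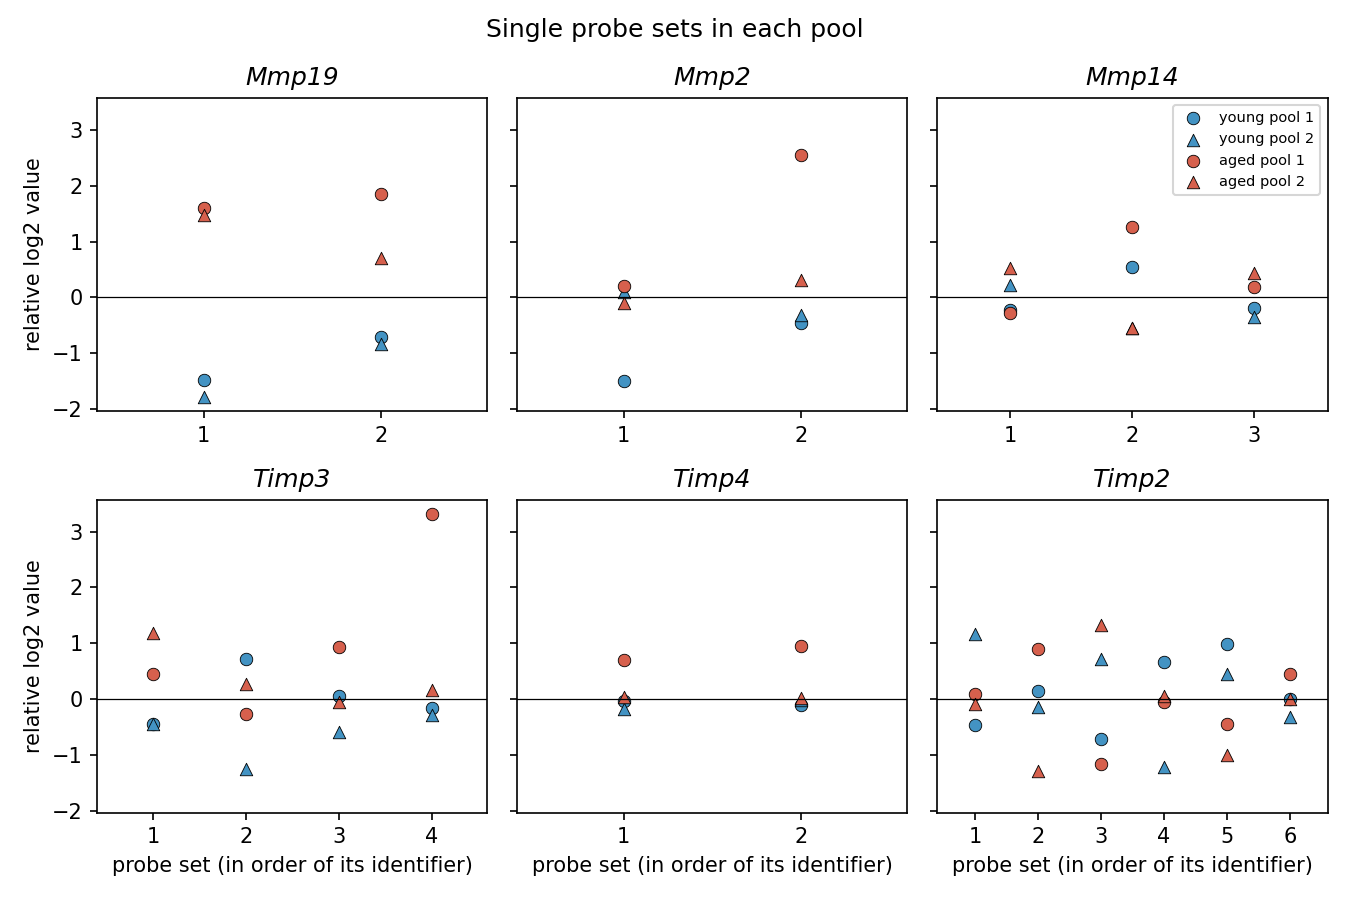
Relative log2 value of every probe set of Mmp19, Mmp2, Mmp14, Timp3, Timp4 and Timp2 in each pool; colour gives the age and shape the pool number. Both Mmp19 probe sets part the ages widely, by 3.17 and 2.06, while the 6 Timp2 probe sets range from -1.45 to 0.39 in their differences.

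The other membrane proteases differed by less than their standard errors. The lipid-anchored Mmp17 stood at -0.66 and 0.41 in the young and -0.41 and 1.28 in the aged pools (0.56 ± 0.70), so that each age held 1 low and 1 high pool. Its difference was -0.29 without aged replicate 2. Mmp16 stood at 0.09 ± 0.39 and Mmp24 at 0.02 ± 0.36. The 4 probe sets of Mmp16 ran from -0.49 to 0.61.

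Mmp9, the other gelatinase and an enzyme of neutrophil granules and macrophages, stood at 0.38 and 0.71 in the young and 0.33 and -0.33 in the aged pools. Both aged values lay below both young ones, though aged pool 1 was only just below young pool 1. The difference of -0.54 ± 0.42 (adjusted p = 0.832, limma) was -0.21 without aged replicate 2. It rested on 1 of its 2 probe sets, which differed by -1.09, while the other differed by 0.0054. In the first, young pool 2 stood at 2.34 and young pool 1 at -0.16, against -0.12 and 0.12 in the aged pools. The ages overlapped in each probe set, so only their average set the ages apart. Mmp8, the neutrophil collagenase, stood at 0.33 and 0 in the young and -0.04 and 0 in the aged pools (-0.19 ± 0.37), and young pool 2 and aged pool 2 held the same value. Whether equal values on several arrays are measurements or a limit set in the processing is not given in the sources used here, so the differences of Mmp8, Timp1 and Adamts19, each read by 1 such probe set, cannot be told from bounds. In the same pools, markers of neutrophils were lower in 7 of 9 measured cases in aged cells, with a median of -0.39 and a mean level of 0.18 and 0.56 in the young and -0.31 and -0.07 in the aged pools, and their part in the values of Mmp8 and Mmp9 was not tested.

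The row of genes on chromosome 9 showed no difference beyond its error. Its 9 members ran from -0.31 to 0.29 with a median of -0.06, with 6 lower and 3 higher, and each difference was smaller than its standard error. The collagenase Mmp13 stood at -0.04 and 0.12 in the young and -0.08 and 0.04 in the aged pools (-0.06 ± 0.36), with the ages interleaved. Mmp1a, another collagenase, stood at 0.01 and 0.44 in the young and -0.10 and -0.01 in the aged pools (-0.28 ± 0.38), and here the aged values lay just below the young ones. Mmp1a and its neighbour Mmp1b (-0.13 ± 0.44) are close copies, and whether their probe sets tell them apart was not tested.

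The stromelysin Mmp10, which also activates other proenzymes, stood at -0.57 and 1.17 in the young and 0.57 and -0.60 in the aged pools. Each age thus held 1 low and 1 high pool, and the difference of -0.31 ± 0.72 turned to 0.56 when young replicate 2 was left out and to 0.28 when aged replicate 2 was. Stromelysin 1, Mmp3, stood at 0.05 ± 0.42. Matrilysin, Mmp7, and stromelysin 3, Mmp11, which lies outside this row, differed by less than 0.01 in size, with -0.0040 ± 0.43 and -0.0070 ± 0.54. The enamel protease Mmp20 stood at 0.29 ± 0.38, and Mmp23, whose gene lies elsewhere, at 0.21 ± 0.46.

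The 4 Timp genes split evenly in direction. Timp3, which is bound to the matrix and also inhibits ADAM and Adamts proteases, stood at 0.04 and -0.65 in the young and 1.11 and 0.39 in the aged pools. Aged pools lay above young pools, and the difference of 1.05 ± 0.46 (2.07-fold, adjusted p = 0.603 with limma) was larger than the gaps of 0.69 and 0.72 within the ages. All 4 probe sets were higher in aged cells, but by 0.27 to 1.96. In the probe sets that differed by 0.27 and 0.70 the ages overlapped. In that with 1.96, aged pool 1 stood at 3.32 and aged pool 2 at 0.16. The difference ran from 0.69 without aged replicate 1 to 1.41 without aged replicate 2. Its promoter carries neither motif of the chromosome 9 genes and has a GC box instead, read here on the opposite strand and set in capitals in the 150 bases before the start, chr10:86300262-86300411 of GRCm38.p6, plus strand, from RefSeq.
Timp3: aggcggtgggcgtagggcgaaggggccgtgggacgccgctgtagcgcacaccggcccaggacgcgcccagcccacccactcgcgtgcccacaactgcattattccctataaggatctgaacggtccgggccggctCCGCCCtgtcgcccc

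Timp4, an inhibitor with a narrow tissue range that includes heart and muscle, stood at -0.07 and -0.09 in the young and 0.83 and 0.02 in the aged pools (0.51 ± 0.43, adjusted p = 0.849 with limma). Only aged pool 1 was clearly higher, and the difference was 0.10 without aged replicate 1. Timp1, the secreted inhibitor that also pairs with proMmp9, stood at 0 and 0.12 in the young and 0 and -0.29 in the aged pools (-0.20 ± 0.37), with young pool 1 and aged pool 1 at the same value.

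The mean of the inhibitors was highest in aged pool 1. Over the 4 Timp genes the mean value was 0.02 and -0.13 in the young and 0.47 and -0.01 in the aged pools. Over the 33 proteases (Mmp and Adamts) it was -0.14 and 0.13 in the young and 0.10 and 0.15 in the aged pools. The ages overlapped in both means, and only aged pool 1 was high in that of the inhibitors. The median difference was -0.0040 for the proteases, 16 of which were higher and 17 lower, and 0.15 for the inhibitors. Without aged replicate 1 the median of the inhibitors was -0.083, and it was 0.42 when aged replicate 2 was left out.

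**Figure D4:**
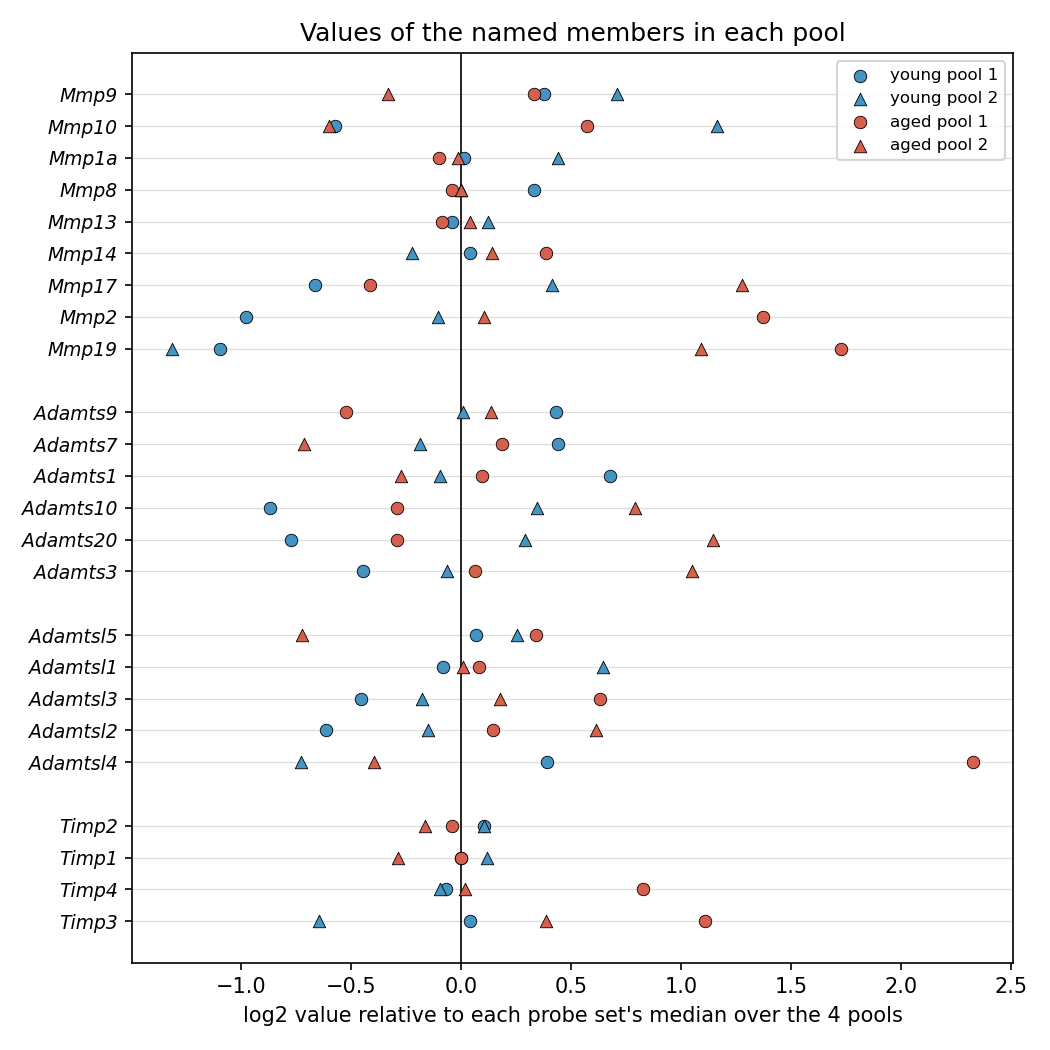
Values of the 24 members named by rule in each pool, as log2 values centred on the median of each probe set; colour gives the age and shape the pool number. Red and blue points are well apart for Mmp19, with -1.31 and -1.09 against 1.09 and 1.73, and lie closer together or interleave for the other 23.

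Of the 15 Adamts genes, 0 reached an unadjusted p under 0.05, against 9.04% of all genes, and 1 did not overlap between the ages, against 36.8% of all genes. That gene was Adamts3, which removes the amino-terminal propeptide of procollagens, with -0.44 and -0.07 in the young and 0.07 and 1.05 in the aged pools (0.81 ± 0.47, 1.76-fold, adjusted p = 0.747 with limma). Aged pool 2 carried most of the distance, and the difference was 0.32 when that pool was left out and 1.31 without aged replicate 1. Both probe sets were higher, by 0.23 and 1.40. In the first the ages just overlapped, with young pool 2 at 0.0084 and aged pool 1 at -0.0084. Adamts20, a versican-cutting protease, stood at -0.77 and 0.29 in the young and -0.29 and 1.15 in the aged pools (0.67 ± 0.64). Adamts10, which associates with fibrillin microfibrils, stood at -0.87 and 0.35 in the young and -0.29 and 0.79 in the aged pools (0.51 ± 0.60). In both genes pool 2 was the higher one at either age, and without aged replicate 2 both differences turned just below 0, to -0.048 and -0.030. That of Adamts10 was -0.10 without young replicate 1.

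The largest Adamts differences downward were small. Adamts9, a protease of versican and aggrecan, stood at 0.44 and 0.0079 in the young and -0.52 and 0.14 in the aged pools (-0.42 ± 0.43), and its 3 probe sets ran from -0.93 to 0.11. Adamts7, which cuts cartilage oligomeric matrix protein, stood at 0.44 and -0.19 in the young and 0.19 and -0.71 in the aged pools (-0.39 ± 0.48). Adamts1, a versican-cutting protease, stood at 0.68 and -0.10 in the young and 0.10 and -0.27 in the aged pools (-0.38 ± 0.44). In Adamts7 and Adamts1 pool 1 was the higher one at either age, and the differences turned to 0.057 without aged replicate 2 and to 0.0071 when young replicate 1 was left out, in that order. The aggrecanases Adamts4 and Adamts5 stood at -0.0060 ± 0.39 and 0.16 ± 0.53. The mean of Adamts5 hides 1 probe set at -2.07 in aged pool 1 and 2.29 in aged pool 2.

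Of the 5 Adamtsl genes, 3 were higher and 2 lower in aged cells. Adamtsl2, which binds fibrillin and the latent TGF-beta binding protein, stood at -0.62 and -0.15 in the young and 0.15 and 0.61 in the aged pools (0.76 ± 0.41, adjusted p = 0.698 with limma). Adamtsl3 stood at -0.46 and -0.18 in the young and 0.63 and 0.18 in the aged pools (0.72 ± 0.39, adjusted p = 0.705 with limma). In both, the ages did not overlap, and the difference was larger than the gap within either age, as it was in 24.8% of all genes. Without 1 pool the difference ran from 0.53 to 0.99 for Adamtsl2 and from 0.49 to 0.95 for Adamtsl3. Where the ages do not overlap, leaving out 1 pool cannot turn the sign, so the kept direction adds no support. Each was read by 1 probe set.

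Adamtsl4 had the largest difference of the family but rested on 1 pool. It stood at 0.39 and -0.73 in the young and 2.33 and -0.39 in the aged pools, and the difference of 1.13 was -0.23 without aged replicate 1. Adamtsl5, another fibrillin binder, stood at 0.07 and 0.26 in the young and 0.34 and -0.72 in the aged pools (-0.35 ± 0.48; 0.18 without aged replicate 2), and its probe sets differed by -1.10 and 0.40. Adamtsl1 stood at -0.08 and 0.65 in the young and 0.08 and 0.01 in the aged pools (-0.24 ± 0.42; 0.13 without young replicate 2).

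Beside the 24 members named by rule, the other 18 all overlapped between the ages and differed by less than their standard errors, from -0.31 to 0.29. Probe sets of a gene often disagreed. Of the 21 members read by several probe sets, 12 had at least 1 probe set in each direction, among them Adamts18, whose 3 ran from -1.02 to 0.60, and Adamtsl1, whose 3 ran from -0.99 to 0.36. The other 21 members were read by 1 probe set each.

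Among the listed genes of extracellular proteolysis beside the members, Reck had the largest difference. Reck is a membrane-anchored inhibitor of several matrix metalloproteinases, Mmp2, Mmp9 and Mmp14 among them. It stood at -1.44 and -0.72 in the young and 1.20 and 0.72 in the aged pools. All aged values thus lay above all young ones, as in 19.9% of all genes. The difference was 2.04 ± 0.44 (4.12-fold; unadjusted p = 0.00418, adjusted p = 0.215 with limma) and ran from 1.69 to 2.40 without 1 pool. It was read by 1 probe set. Of the 10 inhibitors of extracellular proteases measured beside the Timp genes, 7 were higher and 3 lower, with a median of 0.18. Over all genes, 53.8% were higher. In 7 of the 10 the ages overlapped, and in 6 the difference was smaller than its standard error. Reck was the 1 of the 10 with an unadjusted p under 0.05 (limma), against 9.04% of all genes.

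In the other lists of the pathway few genes reached an unadjusted p under 0.05, which 9.04% of all genes did. Higher in aged cells were 53.8% of all genes. Of 10 activators of proenzymes (the plasminogen system, proprotein convertases and the inducer Bsg), 5 were higher and 5 lower with a median of 0.03, and none reached an unadjusted p under 0.05. Of 8 clearance and cell-surface receptors and their ligands, 5 were higher with a median of 0.74, and 1 reached that p, the matrix glycoprotein Thbs1 (1.49 ± 0.58, adjusted p = 0.530 with limma; 0.82 when aged replicate 1 was left out). Of 10 membrane ADAM proteases, 7 were higher with a median of 0.22 and none at that p. Of 10 astacin proteases and cathepsins, 7 were higher with a median of 0.15, and 1 reached that p, the lysosomal protease Ctsl (1.45 ± 0.52, adjusted p = 0.484 with limma; 0.81 without aged replicate 2). Of 12 measured substrates such as versican and fibronectin, 11 were higher with a median of 0.33 and none at that p. In 10 of the 12 the ages overlapped, and in 10 the difference was smaller than its standard error. Versican, Vcan, which several Adamts proteases cut, was an exception to both, at 0.81 ± 0.36 over 8 probe sets.

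Marker lists of several cell types differed between the same pools, and their part in the differences of Mmp19, Mmp2, Timp3 and Reck was not tested. All 14 markers of mature fibres were lower in aged cells, and their mean relative level was 1.38 and 1.22 in the young and -1.39 and -1.40 in the aged pools. Of the satellite cell markers 8 of 12 were higher and 4 lower, where 53.8% of all genes were higher. Their mean levels were -0.25 and -0.40 in the young and 0.38 and 0.29 in the aged pools. In 8 of the 12 the ages overlapped, and in 7 the difference was smaller than its standard error. The largest differences were those of Myf5 (2.56 ± 0.63) and Pax7 (2.31 ± 0.36). The sort marker syndecan-4, Sdc4, is 1 of these 12. It stood at -0.18 and -1.47 in the young and 0.38 and 0.41 in the aged pools (1.22 ± 0.53). It was not used as a check of level, because relative values carry none. Pericyte and smooth muscle markers were higher in 10 of 11 cases, with mean levels of -0.22 and -0.52 in the young and 0.76 and 0.43 in the aged pools. Of the markers of fibro-adipogenic progenitors 9 of 11 were higher. Their mean levels were -0.35 and -0.15 in the young and 0.23 and 0.34 in the aged pools. In 8 of these 11 the ages overlapped, and in 7 the difference was smaller than its standard error.

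Macrophage markers were lower in 10 of 11 cases, with mean levels of 0.64 and 0.34 in the young and -0.73 and -0.46 in the aged pools. T cell markers were higher in 7 of 7, with -0.56 and -0.93 in the young and 1.17 and 0.54 in the aged pools. Among them Cd3g (4.15) and Cd3d (4.11) differed most. In 3 of these 7, Cd3e (0.34 ± 0.37) among them, the difference was smaller than its standard error. Schwann cell markers were higher in 5 of 5, with -0.41 and -0.20 against 0.51 and 0.23. Endothelial markers were lower in 6 of 9 and tendon cell markers in 6 of 7, with medians of -0.31 and -0.21. The ages overlapped in 8 of those 9 and in 5 of those 7. Which of the markers are at or near 0 in abundance cannot be read from relative values.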

How the data were processed

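Affymetrix arrays of 4 pools were used (young 1, young 2, aged 1, aged 2). The deposited table of the authors holds 45101 probe sets in values taken here as log2, with the median of each probe set over the 4 arrays at 0 within 5e-07. How the arrays were background-corrected and normalized, and to which base the logarithm was taken, is not given in the sources used here. Probe sets that the platform annotation gave 1 gene symbol (34945) were averaged per gene, which left 18193 genes; 932 with several symbols, 9160 with none and 64 controls were left out.

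Differences, aged minus young, came from lmFit and eBayes of limma 3.58.1 under R 4.3.3, without a trend and two-sided. Benjamini-Hochberg adjustment ran over all genes. The 2 residual degrees of freedom were joined by 3.56 prior ones. Standard errors and p-values therefore rest on a gene's own spread between pools joined with a spread estimated over all genes. Folds are 2 to the power of the difference. The 4 arrays limit the precision.

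Values by pool are given for members with an unadjusted p under 0.05, the Timp genes, Mmp2, Mmp9, Mmp14, Mmp8, Mmp13 and the 3 largest differences in each direction of the Mmp, Adamts and Adamtsl families (Adamtsl had 2 lower genes). The members, gene lists and protease classes were chosen with earlier results of these data known, and the promoter motifs after the differences were seen. The fit was tested on simulated data. Alternatives were each pool left out, the replicate number as a block, quantile normalization, other summaries and choices of probe sets, updated symbols and robust eBayes. Figures were drawn with matplotlib 3.10.9.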

Additional observations from a re-analysis of the deposited data

How the results depend on the processing

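Over the 9 alternatives run for single genes, Mmp19 kept its direction and an unadjusted p under 0.05, and 0 genes passed an adjusted p of 0.05 in every setting run for all genes (limma; 1205 to 1768 at an unadjusted p under 0.05). With 1 pool left out, the lone pool of that age is assumed to vary like the other age. Without 1 pool, the count of genes higher at that p ran from 281 (without young replicate 2) to 668, against 518. The members at that p numbered 1 to 3, all higher: Adamts3 joined Mmp19 without aged replicate 1, and Mmp2 and Adamtsl4 joined it without aged replicate 2. The family medians ran from -0.082 to 0.30 for Mmp, -0.090 to 0.084 for Adamts, -0.23 to 0.57 for Adamtsl and -0.083 to 0.42 for Timp genes. When each gene was read by its most variable probe set alone, the Adamts median was -0.27 and the Timp2 difference turned to 0.085. Directions that turned without 1 pool gave ranges of -0.77 to 0.0071 for Adamts1, -0.84 to 0.057 for Adamts7, -0.097 to 1.12 for Adamts10, -0.048 to 1.39 for Adamts20, -0.60 to 0.13 for Adamtsl1, -0.23 to 2.50 for Adamtsl4, -0.88 to 0.18 for Adamtsl5, -1.18 to 0.56 for Mmp10, -0.14 to 0.020 for Mmp13 and -0.29 to 1.41 for Mmp17; the cause was not tested. Of 27 genes followed through the alternatives, 16 never turned. That count is no measure of stability. A gene whose ages do not overlap, such as Mmp19, cannot turn when 1 pool is left out. The replicate block leaves every difference as it was.

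The ages share replicate numbers, but the labels do not say that a number marks a shared day or litter. Over all genes, the gap between pools 1 and 2 in young cells and that in aged cells had a correlation of 0.14. With the replicate number as a block, 1768 genes had an unadjusted p under 0.05 in place of 1645, and 2 members did, both higher: Mmp19 and Timp3 (unadjusted p = 0.0345, adjusted p = 0.466 with limma).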

Other observations

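Macrophage elastase, Mmp12, had the widest gap of the members between pools of the same age. It stood at 1.09 and -1.09 in the young and 1.54 and -1.34 in the aged pools, so pool 1 was far above pool 2 at both ages, and the age difference was 0.10 ± 1.14. The median gap between pools of an age was 0.46 in the members at either age, while Mmp12 had gaps of 2.19 and 2.88. The mean level of the macrophage markers was 0.64 and 0.34 in the young and -0.73 and -0.46 in the aged pools, and their part in the values of Mmp12 was not tested.

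Equal values on at least 2 arrays, to 6 decimals, occurred in 2254 probe sets, or 5.0% of the table, and in 7 of the 78 probe sets of the members. Those of Mmp8, Timp1 and Adamts19 are their gene's only probe set. Whether equal values mark a limit set in the processing is not given in the sources used here, and these genes' differences cannot be told from bounds. The others belong to Adamts5, Adamtsl1, Mmp14 and Mmp24.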
